A study of Mus musculus with 18 samples.

Results

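The genes described here encode 8 transcription factors of the ATF, CREB, Jun and Fos families: Atf3, Jun, Jund, Fosl2, Atf1, Atf2, Creb1 and Crem. They were taken by gene symbol from the deposited count table, all 8 were found there, and all 8 passed the filter on low counts, out of 15730 genes tested. The RNA came from the dorsal root ganglia of C57BL/6 mice aged 6 to 8 weeks. These ganglia hold the cell bodies of sensory neurons, and those sampled send their fibres into the sciatic nerve. All ganglia were collected 24 hours after surgery, and each of the 18 samples pooled the ganglia of 2 mice. The 6 groups had 3 samples each, and every group analysed here had undergone an operation. LAM was laminectomy, the removal of bone over the spinal cord, and DCA was a dorsal column injury, which cuts the central branches of sensory axons within the cord. Sham_Saline was the sham operation with saline, and SNA_Saline was sciatic nerve injury with saline. SNA_NAC was sciatic nerve injury with N-acetyl-cysteine, an antioxidant, at 30 mM. Sham_H2O2 was the sham operation with hydrogen peroxide, an oxidant, at 13 mM. No transgene or deletion was named for any group.

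Proteins of these families carry a basic leucine zipper, bind DNA as pairs, and recognise the cAMP response element or the closely related AP-1 site. ATF3 and c-Jun are known as factors that sensory neurons switch on after their peripheral axon is cut, and c-Jun is activated by the JNK stress kinases. CREB1 and ATF1 are present in most cells and are switched on mainly by phosphorylation, ATF2 is a target of the stress kinases, and the Crem gene gives both activators and the inducible repressor ICER.

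The promoter sequences of Atf3 and Jun are shown because these genes had the largest fold changes of the 8 after sciatic injury and because both windows hold elements of the type their own proteins bind. The windows are the 250 bases before the annotated start in the RefSeq table for GRCm38.p6, read 5′ to 3′ on the strand of the gene. For Atf3 the window is chr1:191183334-191183583, minus strand, with its upstream end 34456 bases inside the outermost annotated start of the gene, so it belongs to an inner start. For Jun the window is chr4:95052223-95052472, minus strand, directly before the gene. Capitals mark elements picked after the windows had been viewed: TTACGTCA in Atf3, and TTACCTCA and TGACATCA in Jun, the latter pair being known from work on Jun as its AP-1-like elements.
Atf3: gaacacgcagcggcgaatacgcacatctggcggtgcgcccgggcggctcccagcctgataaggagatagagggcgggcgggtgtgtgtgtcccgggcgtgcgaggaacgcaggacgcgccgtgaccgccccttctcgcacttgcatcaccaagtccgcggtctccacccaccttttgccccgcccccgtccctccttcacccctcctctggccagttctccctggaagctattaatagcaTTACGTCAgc
Jun: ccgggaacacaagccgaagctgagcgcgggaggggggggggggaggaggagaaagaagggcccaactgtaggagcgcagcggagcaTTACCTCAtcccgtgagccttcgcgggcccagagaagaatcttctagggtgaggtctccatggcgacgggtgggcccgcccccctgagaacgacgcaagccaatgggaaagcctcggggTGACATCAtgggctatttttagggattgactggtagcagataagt
In the Atf3 window TTACGTCA began 10 bases before the annotated start. In the Jun window TGACATCA began 45 bases and TTACCTCA 164 bases before the start. On either strand, TTACGTCA was found in 0.447% of the 32851 windows of 250 bases in the table, TTACCTCA in 0.728% and TGACATCA in 2.93%. The full cAMP response element TGACGTCA, present in 1.55% of windows, and the AP-1 site TGACTCA, present in 4.46%, were in none of the 7 member windows in the table. The shorter motif TGACG, present in 17.8% of windows, was found in Atf3, where it overlaps the capitals, and in Atf1. These matches describe letters only.

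Library totals ran from 6472476 to 42435331 counts. Summed sensory neuron markers (11 of 11 in the table, among them Prph, Calca and Scn10a) lay between 13595 and 17973 normalised CPM (counts relative to the scaled library size) over all samples, and Schwann cell markers (6 of 6) between 6319 and 10390 CPM. Macrophage markers (5 of 6 in the table) summed to 54.4 to 58.6 CPM in SNA_Saline, 50.6 to 58.3 CPM in SNA_NAC and 45.1 to 51.8 CPM in Sham_Saline. In LAM they summed to 45.6 to 55.3 CPM, overlapping SNA_Saline, in DCA to 44.7 to 49.2 CPM and in Sham_H2O2 to 40.6 to 51.2 CPM. Satellite glia markers (5 of 5) ran from 1473 to 2498 CPM, and of 4 T cell markers only Cd4 was in the table, at under 1 CPM. Neutrophil markers (5 of 5) summed to 161.7 to 213.3 CPM in SNA_NAC, below the 246.5 to 395.0 CPM of SNA_Saline and the 235.9 to 419.6 CPM of Sham_Saline. The SNA_NAC range was also below LAM (228.6 to 398.0 CPM) but overlapped Sham_H2O2 (169.5 to 397.6 CPM) and DCA (197.0 to 286.4 CPM). Over all samples, markers of red blood cells (5 of 5) ran from 164.4 to 840.2 CPM, of fibroblasts (5 of 5) from 736.6 to 1327 CPM and of endothelium (4 of 4) from 50.7 to 70.2 CPM. Skeletal muscle markers (6 of 6) ran from 6.11 to 1171 CPM within Sham_Saline alone. Their part in the results below was not tested. In whole ganglia, a change in the number of cells of a type and a change in RNA per cell cannot be told apart. The samples were pools of different mice, so p-values measure the spread between pools.

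Among the 8 genes, Atf3 had sample ranges that differed between most operations, though not every step between neighbouring groups passed the test. Jun, Fosl2 and Crem were high in both sciatic injury groups and lower, with overlapping ranges, in the other 4. In the fit of all samples without offsets, Jund, Atf1, Atf2 and Creb1 showed no difference that passed the test in any comparison below (edgeR quasi-likelihood test, Benjamini-Hochberg adjusted p under 0.05).

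**Figure D1:**
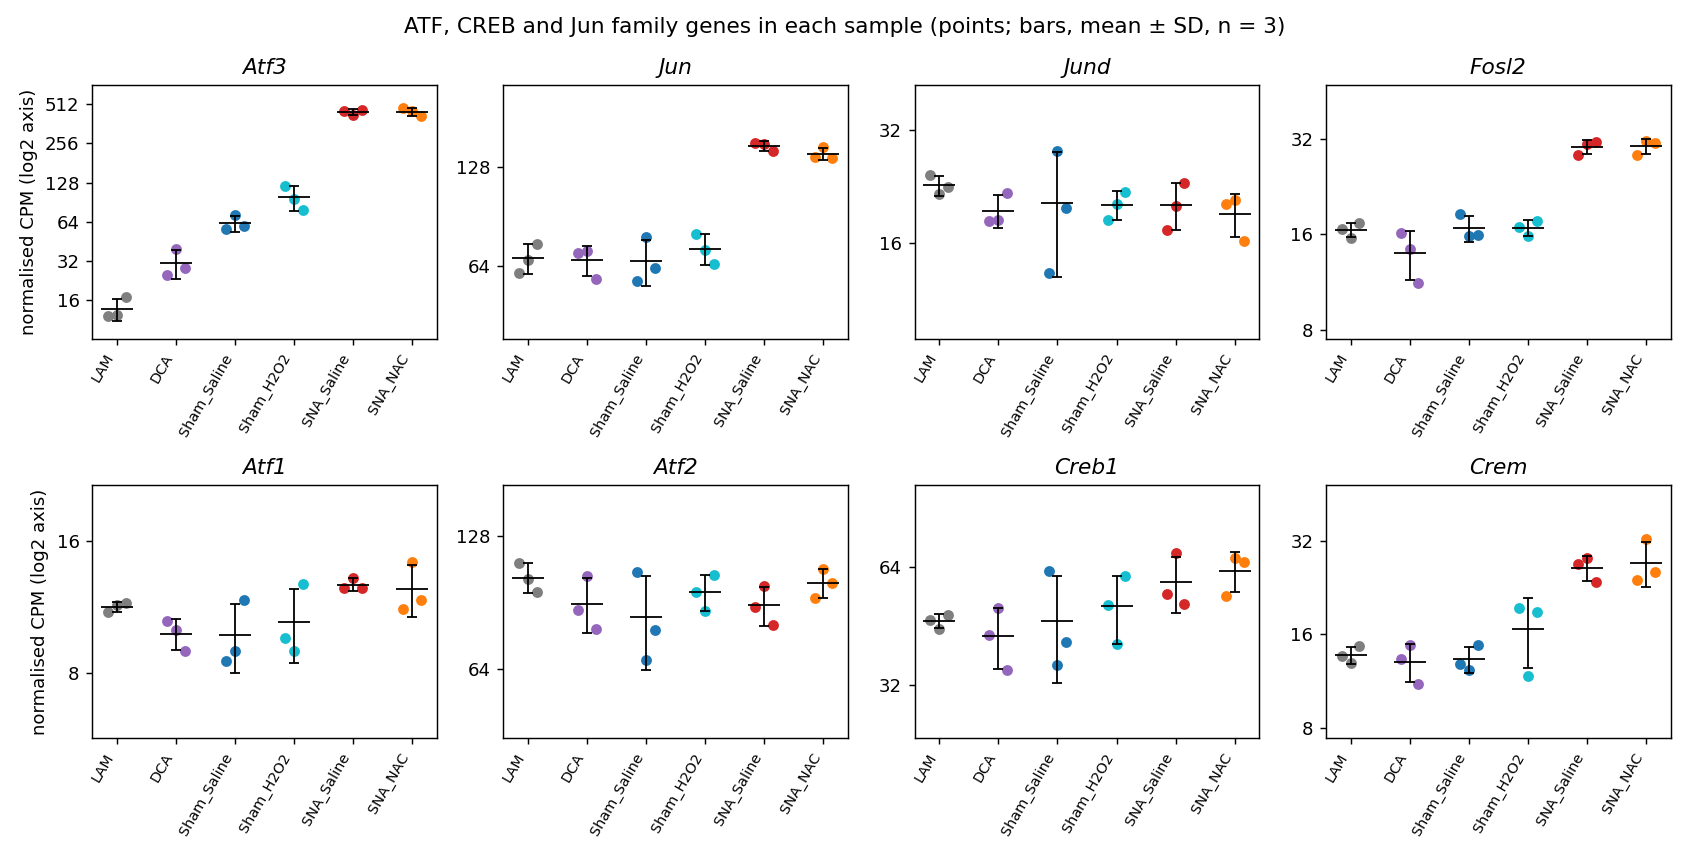
Normalised CPM (vertical log2 axes) of the 8 genes in the 6 groups; points are samples, and bars give the mean ± SD of 3. Atf3 steps up from LAM to the sciatic injury groups, Jun, Fosl2 and Crem stand high in SNA_Saline and SNA_NAC, and the Sham_Saline points of Jund, Atf2 and Creb1 are widely spread.

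Atf3 encodes a stress-induced factor that sensory neurons express at very low levels when intact. It measured 12.2, 12.4 and 16.9 CPM in LAM and 25.0, 39.6 and 28.2 CPM in DCA. In Sham_Saline it measured 55.9, 72.6 and 59.4 CPM, and in Sham_H2O2 120.7, 96.4 and 79.5 CPM. Sciatic injury brought it to 449.8, 420.0 and 461.8 CPM with saline and 477.9, 451.8 and 412.3 CPM with N-acetyl-cysteine. The samples thus fell into 5 ranges that did not touch, LAM lowest, then DCA, Sham_Saline and Sham_H2O2, with the SNA_Saline and SNA_NAC samples mixed at the top. Of all genes, 21.7% had no overlap between LAM and DCA and 5.83% had none between DCA and Sham_Saline. The share was 5.43% between Sham_Saline and Sham_H2O2 and 10.8% between Sham_H2O2 and SNA_Saline. Even the lowest value, in LAM replicate 1, rested on 118 counts.

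Neighbours in that order were compared in the same fit. Atf3 was 1.14 ± 0.19 (SE) higher on the log2 scale in DCA than in LAM, which did not pass (adjusted p = 0.172, edgeR). Sham_Saline was 1.03 ± 0.18 above DCA, which passed (adjusted p = 0.0352, edgeR). Here Atf3 was 1 of 14 genes called, 0.089% of those tested, and the comparison was added after the levels had been seen. Sham_H2O2 was 0.66 ± 0.18 above Sham_Saline, which did not pass (adjusted p = 0.449, edgeR). SNA_Saline was 2.17 ± 0.18 above Sham_H2O2, which passed (adjusted p = 8.26e-06, edgeR), and this comparison too was added after the levels had been seen. Jun (1.04 ± 0.12, adjusted p = 0.000194) and Fosl2 (0.85 ± 0.13, adjusted p = 0.00223) passed there as well by edgeR, against 0.954% of all genes, while Crem was 0.67 ± 0.18 higher with an adjusted p of 0.122.

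Sciatic nerve injury was compared with the sham operation, both with saline, to ask which genes respond to damage of the peripheral axon. Of the 8 genes, 4 rose and 0 fell: Atf3, Jun, Fosl2 and Crem. Over all 15730 genes 2.73% were called. The 8 genes were chosen with earlier results of these data known, so these shares stand side by side as a description only. The median log2 fold change was 0.62 over the 8 genes and -0.03 over all genes. Atf3 was 7.08-fold higher, a log2 fold change of 2.82 ± 0.19 (SE; adjusted p = 1.55e-07, edgeR).

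Jun encodes c-Jun, a core subunit of AP-1. It measured 57.9, 78.5 and 63.3 CPM in Sham_Saline and 151.9, 151.0 and 143.2 CPM in SNA_Saline, so the lowest injured sample was well above the highest sham sample. The rise was 2.23-fold, or 1.16 ± 0.12 on the log2 scale (adjusted p = 2.61e-05, edgeR). An antisense gene, Junos, overlaps Jun, and whether the counting used strand is not given in the sources used here, so reads from both cannot be told apart. Junos itself had a group mean of at most 4.86 CPM, and its log2 difference was 0.43 ± 0.28 (adjusted p = 0.357, edgeR).

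Fosl2 encodes FRA2, a Fos family partner of Jun proteins. It measured 18.5, 15.8 and 15.9 CPM in Sham_Saline and 28.4, 30.8 and 31.3 CPM in SNA_Saline. The groups did not overlap, as in 19.1% of all genes in this comparison, and the rise was 1.80-fold (log2 0.85 ± 0.13, adjusted p = 0.000916, edgeR).

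Crem measured 12.9, 12.3 and 14.7 CPM in Sham_Saline and 27.0, 28.1 and 23.5 CPM in SNA_Saline, again without overlap. It rose 1.97-fold (log2 0.98 ± 0.18, adjusted p = 0.00498, edgeR). Counts per gene do not separate the activating Crem transcripts from ICER. With only the 6 libraries of the contrast in the fit, Fosl2 (adjusted p = 0.0822, edgeR) and Crem (adjusted p = 0.0535, edgeR) no longer passed, while Atf3 and Jun did.

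Atf1, a close relative of Creb1, measured 8.48, 8.97 and 11.7 CPM in Sham_Saline and 12.5, 13.2 and 12.5 CPM in SNA_Saline. Its ranges did not overlap, as in 19.1% of all genes in this comparison, yet the log2 difference of 0.39 ± 0.15 did not pass (adjusted p = 0.174, edgeR). Creb1, the founding CREB factor, measured 62.8, 35.9 and 41.2 CPM in Sham_Saline and 54.6, 69.6 and 51.7 CPM in SNA_Saline. Sham_Saline replicate 1 lay inside the injured range and the other 2 sham samples below it, and the difference was 0.33 ± 0.20 (adjusted p = 0.315, edgeR). Without that sample Creb1 was 0.60 higher and passed (adjusted p = 0.0410, edgeR), and the number of genes called among all genes went from 430 to 2548.

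Atf2 measured 106.3, 67.0 and 78.3 CPM in Sham_Saline and 88.4, 98.5 and 80.8 CPM in SNA_Saline. The injured samples lay inside the sham range, and the 95% interval of the log2 difference ran from -0.23 to 0.40. Jund, a Jun relative that most cells express steadily, measured 13.2, 28.3 and 19.8 CPM in Sham_Saline and 17.3, 20.1 and 23.2 CPM in SNA_Saline. Its sham samples spread over more than the injured ones, and the interval ran from -0.45 to 0.41. Without offsets these intervals leave out the size of change seen in Jun; with GC and length offsets the Jund difference was 0.70 (adjusted p = 0.0830, edgeR) and that of Atf2 -0.12. Jund also overlaps an antisense gene, Gm11175, which had between 0 and 106 counts per sample.

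**Figure D2:**
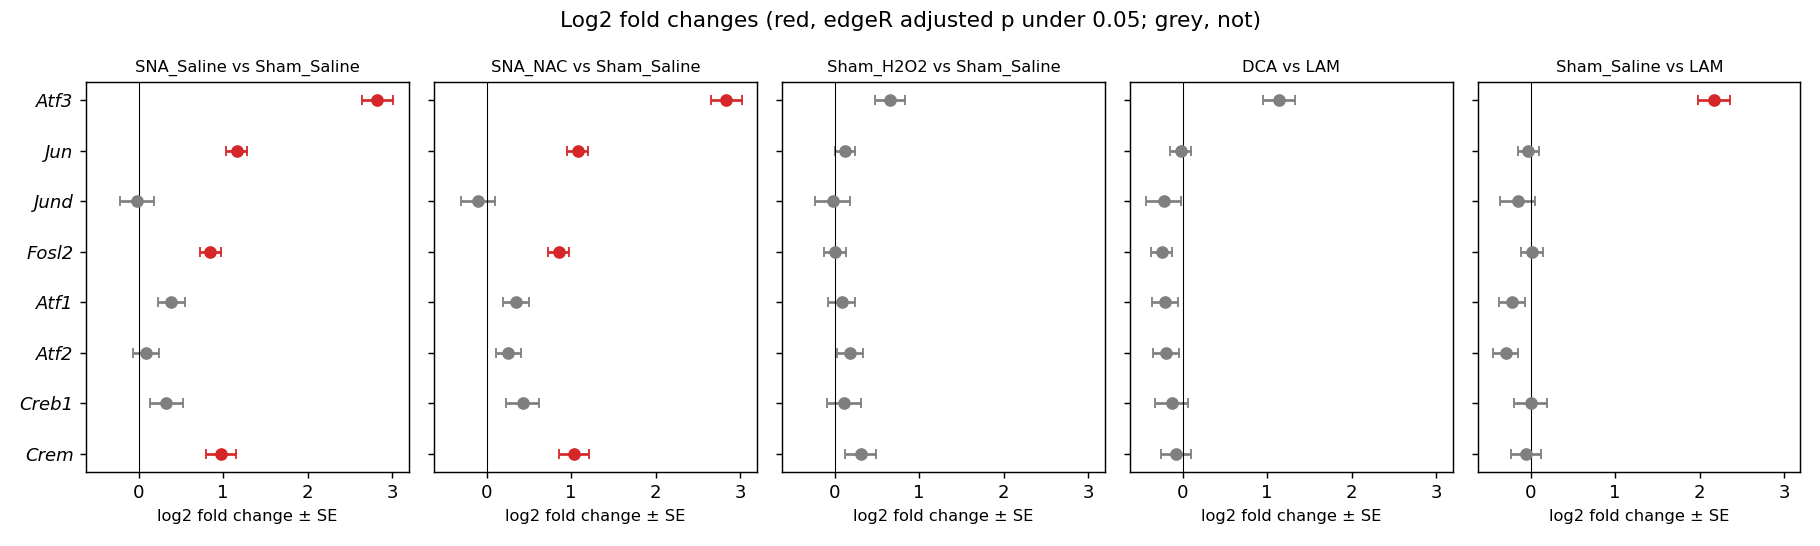
Log2 fold changes (horizontal axes, point ± SE, edgeR) of the 8 genes (rows) in 5 comparisons; red marks an adjusted p under 0.05. Atf3, Jun, Fosl2 and Crem are red in both comparisons of sciatic injury with sham, and Atf3 alone is red for Sham_Saline against LAM.

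N-acetyl-cysteine was set against saline after sciatic injury to ask whether an antioxidant changes the response. By edgeR 0 of the 8 genes passed, with 0 at an unadjusted p under 0.05, and 0 of 15730 genes (0%) did, with 314 at an unadjusted p under 0.05; DESeq2 called 0 too. Jun measured 137.5, 147.5 and 136.7 CPM in SNA_NAC, and Fosl2 28.4, 31.5 and 30.9 CPM. Crem measured 23.9, 32.3 and 25.4 CPM, and each of these ranges overlapped that of SNA_Saline. The 95% interval of the log2 difference was -0.35 to 0.38 for Atf3, -0.33 to 0.17 for Jun, -0.26 to 0.27 for Fosl2 and -0.31 to 0.42 for Crem. These intervals exclude a loss of the whole rise after injury for each of the 4 genes, but not smaller differences.

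Against Sham_Saline, the SNA_NAC samples showed the same 4 genes higher and none lower, where 3.32% of all genes were called. Atf3 was 2.84 ± 0.19, Jun 1.08 ± 0.12, Fosl2 0.85 ± 0.13 and Crem 1.03 ± 0.18 higher on the log2 scale (adjusted p = 1.45e-07, 5.57e-05, 0.000680 and 0.00279, edgeR). This comparison shares its Sham_Saline samples with the saline one, so it is no independent repeat. In a fit of these 6 libraries alone, Fosl2 (adjusted p = 0.0569, edgeR) and Crem (adjusted p = 0.0561, edgeR) did not pass. Without Sham_Saline replicate 1, Creb1 (0.70 higher, adjusted p = 0.0104, edgeR) and Atf2 (0.46 higher, adjusted p = 0.0153, edgeR) passed as well, and the genes called went from 522 to 5861.

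Hydrogen peroxide on the sham nerve was set against saline to ask whether an oxidant alone changes expression. By edgeR 0 of the 8 genes passed, with 1 at an unadjusted p under 0.05, and 0 of all genes (0%) did, with 1440 at an unadjusted p under 0.05, while DESeq2 called 4 genes, none of them among the 8. Atf3 was higher in 3 of 3 samples than in any Sham_Saline sample, which 5.43% of all genes were in 1 direction or the other. It was 1.58-fold higher, and 24th of 15730 genes by unadjusted p (0.00173, edgeR). Crem measured 19.4, 11.8 and 18.9 CPM in Sham_H2O2, so 2 samples were above all sham samples and 1 was below them (log2 0.31 ± 0.18, adjusted p = 0.450, edgeR). Jun measured 80.4, 71.6 and 65.3 CPM and Fosl2 16.9, 15.8 and 17.6 CPM, both overlapping Sham_Saline. The log2 intervals were -0.13 to 0.38 for Jun and -0.27 to 0.27 for Fosl2, below the rises seen after sciatic injury.

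Dorsal column injury was set against laminectomy to ask what follows damage of the central branch. By edgeR 0 of the 8 genes passed, with 1 at an unadjusted p under 0.05, and neither did any other gene (0%), with 793 at an unadjusted p under 0.05. Atf3 was higher in 3 of 3 DCA samples than in any LAM sample, where 21.7% of all genes had no overlap in 1 direction or the other. It had the smallest unadjusted p of all genes (edgeR). DESeq2 called 2 genes here, of which Atf3 was 1 (log2 1.13, adjusted p = 8.81e-05). Across the other alternatives its adjusted p reached 0.909.

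Jun measured 61.1, 66.9 and 75.0 CPM in LAM and 70.1, 71.4 and 58.8 CPM in DCA, and Crem 13.7, 12.9 and 14.6 CPM against 13.3, 14.8 and 11.1 CPM. Both pairs overlapped, with log2 intervals of -0.28 to 0.23 for Jun and -0.46 to 0.30 for Crem. Fosl2 measured 16.7, 15.6 and 17.3 CPM in LAM and 16.1, 14.4 and 11.3 CPM in DCA (log2 -0.25 ± 0.13, adjusted p = 0.624, edgeR). Atf1 measured 11.0, 11.4 and 11.5 CPM in LAM and 10.5, 9.99 and 8.95 CPM in DCA. Every DCA sample of Atf1 was lower, as against 21.7% of genes without overlap in either direction, at a log2 difference of -0.21 ± 0.15 (adjusted p = 0.624, edgeR).

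The control operations were compared with each other as well. Atf3 was 4.49-fold higher in Sham_Saline than in LAM (log2 2.17 ± 0.19, adjusted p = 4.09e-05, edgeR), the smallest p of all genes. It was the only 1 of the 8 genes called, where 0.0699% of all genes, 11 in number, were called. The log2 differences of Jun, Fosl2, Crem and Creb1 were -0.03, 0.02, -0.05 and 0.00. Without Sham_Saline replicate 1, Atf2 was called too, at -0.50 (adjusted p = 0.0236, edgeR), and 5009 genes were called in all. These groups differ in operation site as well as in saline, which cannot be told apart.

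The difference between the 2 injuries was tested directly, as the sciatic log2 fold change minus the dorsal column one. For 4 of the 8 genes it passed, all with a larger sciatic change, where 1.61% of all genes were called. The difference was 1.68 ± 0.25 for Atf3 (adjusted p = 0.00229), 1.18 ± 0.17 for Jun (adjusted p = 0.00155), 1.10 ± 0.18 for Fosl2 (adjusted p = 0.00496) and 1.06 ± 0.25 for Crem (adjusted p = 0.0448), all by edgeR. The dorsal column values that enter the difference were 1.14 for Atf3, -0.02 for Jun, -0.25 for Fosl2 and -0.08 for Crem, none of them called. With the replicate number as a block, Crem did not pass (difference 1.06, adjusted p = 0.0841, edgeR) and 3 genes were called, and the genes called among all went from 254 to 118. Crem passed in 7 of 21 alternatives, among them the fit with no filter, which repeats the main fit. Crem had an adjusted p from 0.00509 to 0.146 over the 21. It was lost in each leave-one-out fit except those without Sham_Saline replicate 1 and SNA_Saline replicate 3, with a difference of 0.96 and the highest p when DCA replicate 3 was left out. Atf1 differed by 0.60 ± 0.22 without passing (adjusted p = 0.0979, edgeR). Without Sham_Saline replicate 1, Creb1 (0.73, adjusted p = 0.0359, edgeR) and Atf2 (0.49, adjusted p = 0.0467, edgeR) passed as well.

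**Figure D3:**
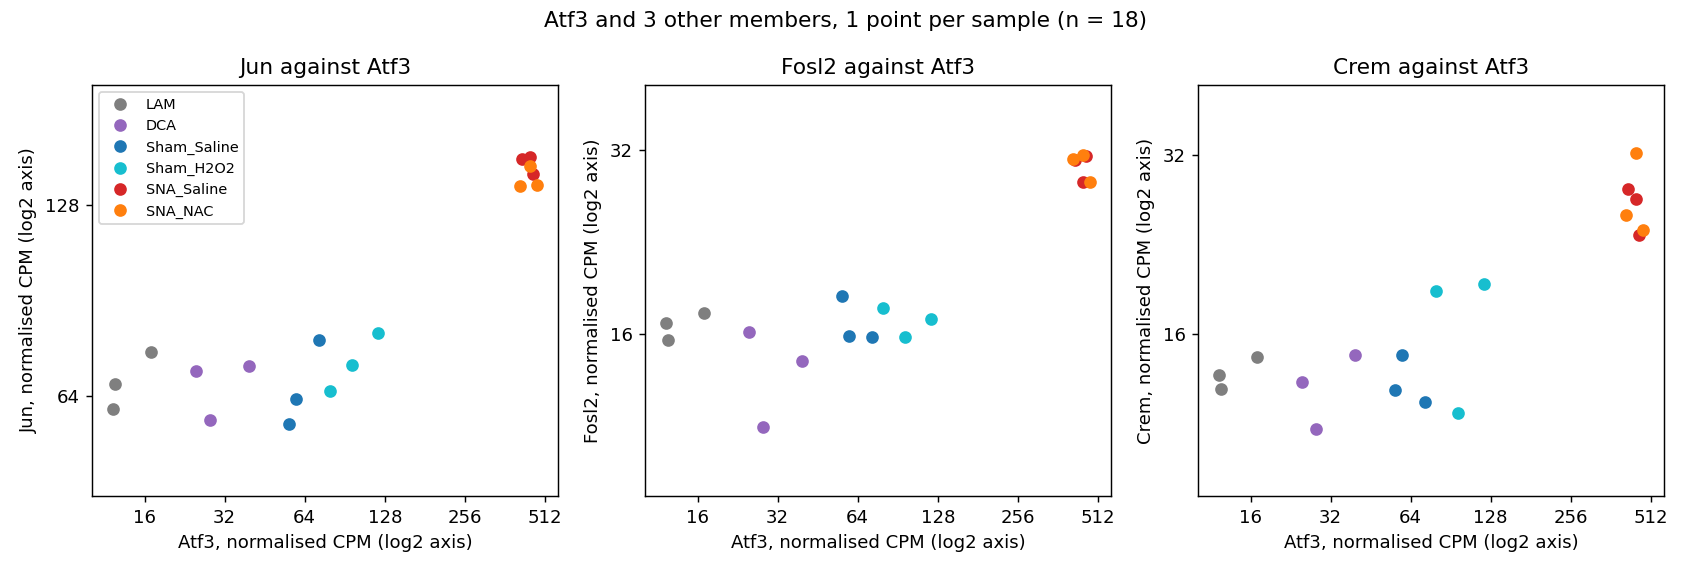
Normalised CPM of Jun, Fosl2 and Crem (vertical log2 axes) against Atf3 (horizontal log2 axes) in 18 samples, coloured by group. From LAM to Sham_H2O2 Atf3 runs from 12.2 to 120.7 CPM while Jun stays between 57.9 and 80.4 CPM, and the 6 sciatic injury samples stand apart at the upper right.

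The plot of Atf3 against the other 3 genes shows that the graded levels of Atf3 had no counterpart in Jun or Fosl2. Over the 12 samples without sciatic injury, Atf3 spanned 12.2 to 120.7 CPM. Over the same samples Jun spanned 57.9 to 80.4 CPM, Fosl2 11.3 to 18.5 CPM and Crem 11.1 to 19.4 CPM. The 6 injured samples were above all 12 for Atf3, Jun, Fosl2 and Crem alike. How many of all genes show this was not counted.

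Levels were compared between genes on the FPKM scale, which divides by gene length. In LAM the 8 genes summed to 61.9 ± 3.61 FPKM (SD, n = 3), and in SNA_Saline to 302.7 ± 12.7 FPKM. Jun was the most abundant in LAM, at 33.6% of the sum, with Atf2 at 20.0% and Atf3 at 11.0%. Atf3 made up 23.1% in DCA, 37.6% in Sham_Saline, 46.5% in Sham_H2O2, 72.4% in SNA_Saline and 72.8% in SNA_NAC. It passed Jun from Sham_Saline on. The share of Jun in the sum was 15.1% in SNA_Saline although its own level rose from 20.9 to 45.7 FPKM. The order at the top depends on the length used: per kilobase of the longest annotated transcript, Atf2 led in LAM with 24.5 CPM against 21.2 CPM for Jun.

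**Figure D4:**
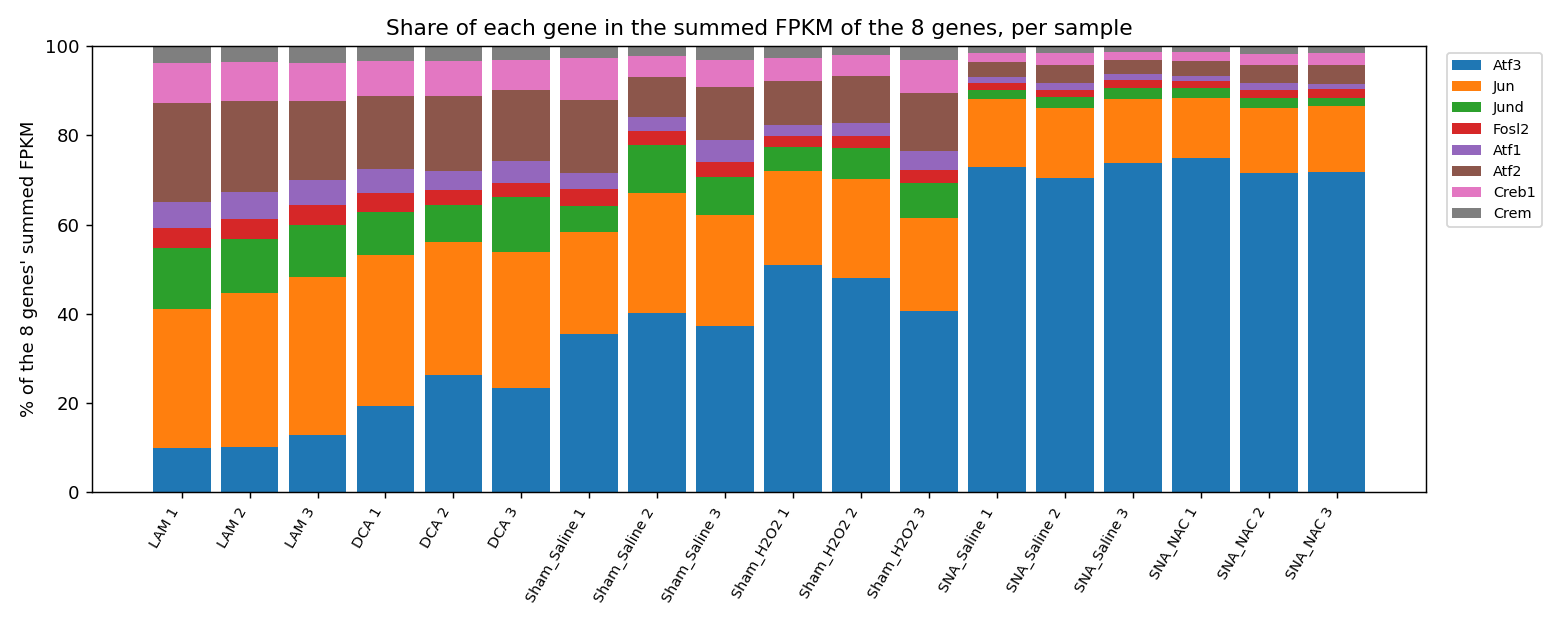
Share (%) of each gene in the summed FPKM of the 8 genes, 1 bar per sample. The Atf3 band widens from 11.0% on average in LAM to 72.4% in SNA_Saline and 72.8% in SNA_NAC, while the bands of Jund, Atf2 and Creb1 vary between the Sham_Saline samples (Creb1 from 4.67% to 9.38%).

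Related genes were taken from lists of known family members, kinases and targets. Of 30 other members of the ATF, CREB, Fos and Jun families and their close partners, 25 were in the table and 2 changed after sciatic injury: Nfil3, a zipper-containing repressor linked to regeneration, rose by 1.05 ± 0.17 (log2; adjusted p = 0.00155, edgeR), and Creb3l1, a membrane-bound factor, fell by 0.72 (SE 0.16; adjusted p = 0.0239, edgeR). Nfil3 averaged 8.99 ± 1.42 CPM (SD, n = 3) in Sham_Saline, 18.7 ± 1.74 CPM in SNA_Saline and 17.9 ± 0.33 CPM in SNA_NAC. Creb3l1 was 0.56 ± 0.16 higher (log2) in Sham_Saline than in LAM (adjusted p = 0.104, edgeR). Its log2 difference of SNA_Saline from Sham_H2O2 was -0.36 ± 0.17 (adjusted p = 0.672, edgeR). The size of its fall thus depends on the group it is compared with. The list's median log2 fold change was 0.10 against -0.03 over all genes, of which 2.73% were called. By DESeq2 3 of the 25 passed after sciatic injury, 4 for SNA_NAC against Sham_Saline and 5 for the difference between injuries. By edgeR 2, 2 and 0 did. Of all genes, DESeq2 called 5.49%, 7.6% and 10.1% there. Comparing SNA_NAC with SNA_Saline, Sham_H2O2 with Sham_Saline and DCA with LAM, 0 of the 25 passed by edgeR or DESeq2. At an unadjusted p under 0.05 by edgeR were 0, 4 and 1 of the 25, against 314, 1440 and 793 of all genes. No gene of the lists below passed in these comparisons either. For Sham_Saline against LAM, 0 of the 25 passed by edgeR and 5 by DESeq2, which called 5.86% of all genes. By edgeR 9 of the 25 were at an unadjusted p under 0.05, as were 4765 of all 15730 genes.

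Upstream of these factors, 0 of 22 genes of the JNK and p38 stress kinase cascades passed after sciatic injury by edgeR or DESeq2, with a median of -0.20. By edgeR 6 of the 22 were at an unadjusted p under 0.05, as were 3532 of all 15730 genes. By DESeq2 3 of the 22 passed for SNA_NAC against Sham_Saline, 3 for Sham_Saline against LAM and 3 for the difference between injuries, and by edgeR 0 did. Of all genes, DESeq2 called 7.6%, 5.86% and 10.1% in these comparisons. Of 11 listed MAP kinase phosphatases 9 were in the table. After sciatic injury 1 of the 9 was called, where 2.73% of all genes were, and the list median was 0.225. It was Dusp1, which switches those kinases off and rose by 0.71 ± 0.12 (adjusted p = 0.00190, edgeR). Dusp1 was also the 1 of the 9 called for the difference between injuries (0.71, adjusted p = 0.0386, edgeR). In that test 1.61% of all genes passed. For cAMP and calcium signalling to CREB, 0 of 26 genes passed after sciatic injury by edgeR. The list median was -0.17, against -0.03 over all genes. DESeq2 called 1 of the 26 and 5.49% of all genes. By edgeR 6 of the 26 were at an unadjusted p under 0.05, beside the same 3532 of 15730 genes. For Sham_Saline against LAM the medians were 0.291 for this list and 0.225 for the kinase cascades, against 0.02 over all genes. There 15 of the 26 and 7 of the 22 were at an unadjusted p under 0.05 (edgeR), as were 4765 of 15730 genes. Of the 26, 0 were called there by edgeR or DESeq2. Transcript levels do not measure kinase activity.

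Downstream, 5 of 12 genes reported as ATF3 or Jun targets in injured neurons rose after sciatic injury and 0 fell, where 2.73% of all genes were called, with a median of 0.53. Between the control operations, Sham_Saline against LAM, the median of this list was larger, at 0.76. There 0 of 12 were called by edgeR and 4 by DESeq2, which called 5.86% of all genes. By edgeR 7 of the 12 were at an unadjusted p under 0.05, as were 4765 of all 15730 genes. Sprr1a, a small proline-rich protein of regrowing axons, was 2.85 ± 0.50 higher on the log2 scale, from a Sham_Saline mean of 2.59 CPM to 18.9 CPM. Gadd45a, a stress and DNA repair gene, was 2.53 ± 0.13 higher (45.7 to 264.1 CPM), and the transcription factor Sox11 was 1.91 ± 0.30 higher (1.12 to 4.32 CPM). Galanin (Gal) was 1.19 ± 0.24 and Cd44 0.93 ± 0.15 higher. The adjusted p was at most 0.0108 among these 5 by edgeR, and the same 5 genes passed with N-acetyl-cysteine. Gadd45a (2.39, adjusted p = 6.97e-06) and Cd44 (1.14, adjusted p = 0.0135) also passed the test of the difference between injuries by edgeR.

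Of 16 genes reported as CREB targets, 2 rose and 0 fell after sciatic injury, where 2.73% of all genes were called, with a median of 0.12. Adcyap1, the neuropeptide PACAP, was 1.63 ± 0.15 higher (116.0 to 359.1 CPM; adjusted p = 9.92e-06, edgeR). Bdnf, a neurotrophin, was 0.99 ± 0.14 higher (61.2 to 121.5 CPM; adjusted p = 0.000542, edgeR). In the difference between injuries, Adcyap1 (1.79), Bdnf (1.27) and Gem (1.43), a small GTPase, passed with adjusted p of 0.000498, 0.00300 and 0.0401 by edgeR. In that test 1.61% of all genes were called. The dorsal column values that enter the difference were -0.16 for Adcyap1, -0.29 for Bdnf and -0.64 for Gem, none of them called. Gem was not called after sciatic injury either. The lists were drawn from general knowledge, but with earlier results of these data known, so their shares beside all genes are a description only. Their targets were not measured as such in these ganglia.

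The genes whose log2 CPM was most like each member over the 18 samples were picked among 12990 genes with a mean count of at least 50. For Atf3 they were Gpr151 (Pearson r = 0.98), Smim3 (0.98) and Igfbp3 (0.97). Jun was followed by Gm20204 (0.98), Scpep1 (0.97) and Procr (0.97), and Fosl2 by Myadm (0.97), Bhlhe41 (0.97) and again Gm20204 (0.97). For Crem they were Pkib (0.97), an inhibitor of protein kinase A, Arpc2 (0.97) and Serpinb1a (0.97). The factors without a called change had other neighbours: Btg1 (0.92) for Atf1, Nr2c2 (0.98) for Atf2, Rbbp6 (0.95) for Creb1 and Atpif1 (0.80) for Jund. The values share libraries and group differences and are given as a description.

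Each lane held 1 library of every group, so differences can be read within lanes. Within lanes, the log2 difference of SNA_Saline from Sham_Saline ran from 2.53 to 3.01 for Atf3 and from 0.94 to 1.39 for Jun. It ran from 0.61 to 0.97 for Fosl2 and from 0.67 to 1.19 for Crem. The sample ranges of these genes did not overlap, so a rise in every lane was bound to follow and adds no support. Creb1 differed by -0.20 in lane 1 but 0.95 and 0.33 in the other 2 lanes, and Jund by 0.38, -0.49 and 0.22. For Atf3 the lane differences were 0.74 to 1.67 for DCA against LAM and 0.41 to 1.11 for Sham_H2O2 against Sham_Saline. The sample ranges of Atf3 did not overlap in these comparisons either, so the same limit holds.

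Libraries differed in how counts varied with base composition, and joint offsets for GC share and transcript length moved Jund the most after sciatic injury. The slope of log2 CPM, relative to each gene's mean, on the GC share of the longest transcript ran from -0.22 in Sham_H2O2 replicate 3 to 0.43 in Sham_Saline replicate 2 per SD of GC share. The other Sham_Saline slopes were -0.04 and 0.16. Jund has a GC share of 67.1%, above that of 99.9% of genes, while Creb1 (39.6%) and Atf2 (40.5%) are at percentiles 5.2 and 7.8. With offsets for GC share and length, the Jund log2 difference after sciatic injury moved from -0.02 to 0.70 (adjusted p = 0.0830, edgeR), Atf2 from 0.09 to -0.12 and Creb1 from 0.33 to 0.16. The difference between injuries of Jund then passed (1.43, adjusted p = 0.0194, edgeR). Atf3 (2.90), Jun (1.47), Fosl2 (1.04) and Crem (0.76) stayed called after sciatic injury. So no direction is given here for Jund or Atf2.

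**Figure D5:**
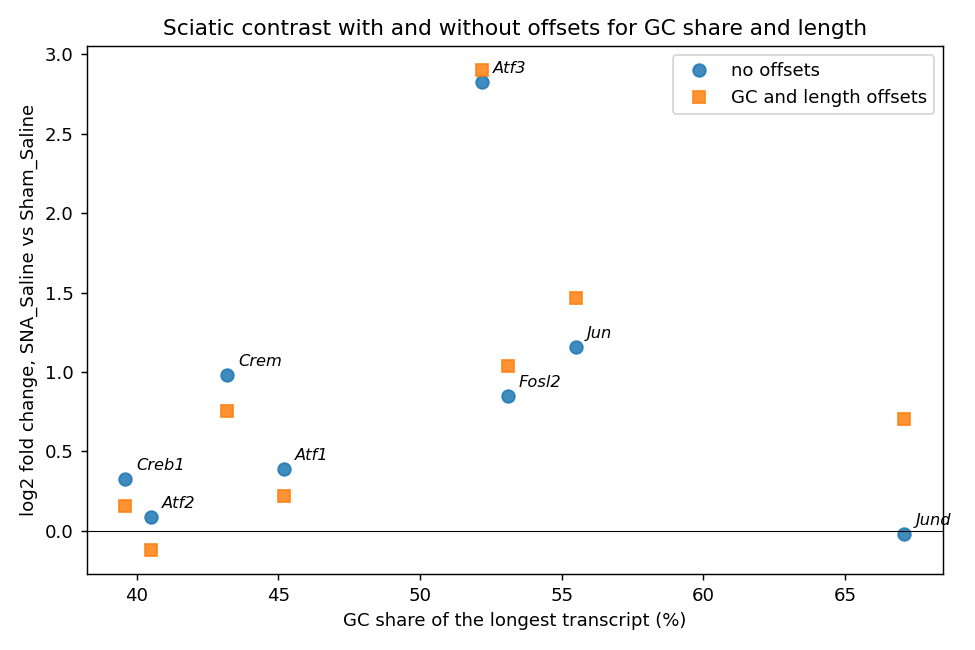
Log2 fold change of SNA_Saline against Sham_Saline (vertical axis) by GC share (%) of the longest transcript (horizontal axis), without offsets (circles) and with GC and length offsets (squares). Jund, at the far right, moves from -0.02 to 0.70, while Atf3 moves from 2.82 to 2.90.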

How the data were processed

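Per the labels' protocols, strand-specific mRNA libraries (TruSeq) from pools of mouse ganglia were sequenced from 1 end, 6 libraries per lane, and the labels give each sample's lane, which equals its replicate number. The authors deposited whole-number read counts per gene and FPKM values (scaled to gene length and depth). Per the submitters' processing notes, the tools were TopHat2 2.0.12, Bowtie2 2.2.3, SAMtools 0.1.19, HTSeq 0.6.0, FastQC 0.10.1, edgeR 3.8.6 and limma 3.22.7 in R 3.1.1, with build mm10; use of strand in counting is not given in the sources used here. The deposited count table held no gene with a mean below 10.1 counts.

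Counts were fitted with edgeR 4.0.16 in R 4.3.3 (TMM, filterByExpr, glmQLFit, glmQLFTest), all 18 samples in 1 fit, 6 groups, no block; all 15730 genes passed the filter. P-values were adjusted by Benjamini-Hochberg over all genes, with a threshold of 0.05. The SE of a log2 fold change was taken as its size over the root of F. CPM (counts over TMM-scaled library size) had a prior count of 2 before log2. With 3 samples against 3, an exact permutation test cannot go below 0.1, so none was used. Total counts differed 6.56-fold, and without molecular identifiers reads may be copies of 1 molecule.

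Alternatives were DESeq2 1.42.0, a minimum of 10 counts throughout, no filter, a fit of the contrast's own groups, a replicate block, offsets for GC share and length (natural splines, 5 degrees of freedom, longest GENCODE M21 transcript), the same with the block, limma 3.58.1 on log2(FPKM + 1) and log2(FPKM + 0.1), and leaving out each sample. The replicate numbers pair libraries by lane, not by animal: the mean correlation of same-numbered deviations was -0.24 for SNA_Saline with Sham_Saline, 0.07 for DCA with LAM and 0.31 for Sham_Saline with LAM. All genes passed the filter, so the fit with no filter repeats the main fit and adds no support. The methods were tested on simulated data, but no result of that is given here, so it adds no support either. Each member is described in every group, list genes are named where they passed, and the 3 most alike genes are named by Pearson r, cut to the first for members without a called change. Of a symbol with more than 1 row, the first was used. The members and lists were chosen with earlier results of these data known. Promoters are from RefSeq (7 of 8 members matched), and figures were drawn with matplotlib 3.10.9.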

Additional observations from a re-analysis of the deposited data

Results flagged for a closer look

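The log2 fold change after sciatic injury exceeded that after dorsal column injury by 1.68 for Atf3, 1.18 for Jun, 1.10 for Fosl2 and 1.06 for Crem, by edgeR's test of the difference itself. For Atf3 the dorsal column value was 1.14, which did not pass (adjusted p = 0.172, edgeR). Its sample ranges in DCA and LAM did not overlap, as in 21.7% of all genes. For Jun, Fosl2 and Crem the dorsal column contrast lay between -0.25 and -0.02. The adjusted p of Crem was above 0.05 in 14 of 21 alternatives, while Atf3, Jun and Fosl2 passed in all 21. The fit with no filter, among the 21, repeats the main fit, so its outcome was fixed in advance.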

How the results depend on the processing

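Of the recounts of called members under the alternatives, 107 stayed within 1.5 times and 4 did not. The 107 include comparisons in which 0 members were called in the main fit, where 0 against 0 counts as unchanged. They also include the fit with no filter, which repeats the main fit. The 107 is therefore no measure of how stable the calls were. In fits of a contrast's own groups, 2 of the 8 genes were called for SNA_Saline and 2 for SNA_NAC against Sham_Saline, and 65 and 68 genes in all against 430 and 522. DESeq2 called 1 member for DCA against LAM. Leaving out each sample gave 4 to 5 members called for SNA_Saline and 4 to 6 for SNA_NAC against Sham_Saline, 1 to 2 for Sham_Saline against LAM and 3 to 6 for the difference between injuries. With the replicate block 4 members were called after sciatic injury (320 genes in all), 4 with N-acetyl-cysteine, 1 for Sham_Saline against LAM (6 genes against 11) and 3 for the difference between injuries; it changed no call but that of Crem in the last. DESeq2 called 863 genes after sciatic injury, 1196 with N-acetyl-cysteine, 921 for Sham_Saline against LAM and 1587 for the difference between injuries; GC and length offsets gave 1171, 1226, 26 and 804, and with the block 1013, 1132, 23 and 641. Sham_Saline against LAM gave 4 genes with at least 10 counts in every sample, 1 in the fit of its groups alone and 5 by limma on log2(FPKM + 1); the difference between injuries gave 151 in the fit of its groups alone. Leaving out a sample gave 174 to 2548, 215 to 5861, 4 to 5009 and 55 to 4600 genes, the highest without Sham_Saline replicate 1 each time. Why the numbers moved was not tested. No called member changed sign.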
